A study of Mus musculus with 2 samples.

Results

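The keratin family was examined in cortical thymic epithelial cells (cTECs) of 7-day-old NOD mice. Its members were all genes whose platform symbol is Krt followed by a number, read from probe sets annotated to a single gene symbol, without the keratin-associated Krtap genes and Krtdap. There were 52 such genes among 19938 genes with a probe set of that kind, and each of the 52 keratins had 1 probe set. RNA for an array came from Aire transgenic animals (Tg), in which Aire was placed under the promoter of the gene for β5t (Psmb11), a proteasome subunit of the thymic cortex. RNA for the other array came from non-transgenic animals (non-Tg) of the same background and age. Each genotype had 1 array, and the source labels name 7 Tg and 5 non-Tg, read here as animals pooled for an array. No difference has a replicate check, and no p-value was computed.

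Keratins are the intermediate filament proteins of epithelial cells. They polymerise only as pairs of a type I and a type II chain, and the pair in use changes with the kind of epithelium. Krt8 and Krt18 form the filaments of simple epithelia and mark the thymic cortex, Krt5 and Krt14 form those of basal layers and mark most of the thymic medulla, and Krt1 and Krt10 appear as keratinocytes differentiate. Medullary thymic epithelial cells that have passed through an Aire-expressing stage are known to take on keratinocyte features, and some of them express Krt1 and Krt10. The comparison therefore asks which keratins cTECs carried and whether any of them differed when Aire was expressed in the cortex.

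The promoter windows of 4 keratins measured well above background on both arrays are shown, those of the simple pair Krt8 and Krt18, of the simple keratin Krt7 and of the basal keratin Krt5, since the results turn on these genes. Each window runs from 250 bases before to 50 bases after the RefSeq start site, is given 5′ to 3′ in the direction of transcription and follows the GRCm38.p6 build. The Krt8 window is chr15:102004293-102004592 on the minus strand, that of Krt18 chr15:102027966-102028265 on the plus strand, that of Krt7 chr15:101412153-101412452 on the plus strand and that of Krt5 chr15:101712856-101713155 on the minus strand. Capitals mark matches on either strand to TATAAA (the TATA box), GGGCGG (the GC box) or TGANTCA (the site of AP-1 factors). In Krt8 the capitals are TATAAA on both strands, overlapping at the start site, and in Krt7 they are GGGCGG on the plus or the minus strand.
Krt8: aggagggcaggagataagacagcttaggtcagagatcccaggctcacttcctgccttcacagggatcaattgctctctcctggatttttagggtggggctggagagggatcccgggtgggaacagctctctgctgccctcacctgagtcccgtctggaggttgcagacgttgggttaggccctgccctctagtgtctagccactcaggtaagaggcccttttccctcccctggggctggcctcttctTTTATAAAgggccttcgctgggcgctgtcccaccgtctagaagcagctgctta
Krt18: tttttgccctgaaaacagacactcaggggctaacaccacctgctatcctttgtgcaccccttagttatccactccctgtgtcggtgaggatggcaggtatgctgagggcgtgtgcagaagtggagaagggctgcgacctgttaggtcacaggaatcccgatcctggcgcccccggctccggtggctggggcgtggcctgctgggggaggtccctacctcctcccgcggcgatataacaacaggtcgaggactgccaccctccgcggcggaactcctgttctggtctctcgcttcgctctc
Krt7: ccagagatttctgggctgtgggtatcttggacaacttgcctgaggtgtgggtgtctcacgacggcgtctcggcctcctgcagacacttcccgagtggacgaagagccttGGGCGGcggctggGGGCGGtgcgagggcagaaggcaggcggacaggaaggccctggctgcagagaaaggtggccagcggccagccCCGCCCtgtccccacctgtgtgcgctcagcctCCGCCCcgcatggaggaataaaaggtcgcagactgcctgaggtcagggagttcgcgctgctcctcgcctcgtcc
Krt5: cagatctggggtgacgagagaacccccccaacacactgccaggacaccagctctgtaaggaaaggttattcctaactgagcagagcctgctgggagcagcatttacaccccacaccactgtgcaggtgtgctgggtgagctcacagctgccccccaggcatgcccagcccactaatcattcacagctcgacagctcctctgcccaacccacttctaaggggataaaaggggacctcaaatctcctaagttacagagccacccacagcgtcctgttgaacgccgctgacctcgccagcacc

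RefSeq windows matched 36 of the 52 keratins by symbol, in 37 windows because Krt13 has more than 1. TATAAA was present in 19 of the 37 windows (51.4%), against 13.6% of all 32851 promoter windows of the same length. GGGCGG was present in 2 of the 37 (5.41%), those of Krt7 and Krt75, against 35.7% of all windows. TGANTCA was present in 2 of the 37 (5.41%), both of them windows of Krt13, against 7.81% of all windows. TATAAA occurred in 6 of the 14 windows of keratins past the filter and in 13 of the 23 windows of the others. The Krt18 window held 17 CpG dinucleotides and the Krt7 window 21, against 6 in the Krt8 window, 6 in the Krt5 window and a median of 5 over the keratin windows. Keratin genes are copies of a few ancestral genes, so these windows are not independent of each other. A match is a run of letters and not a measured binding site.

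The keratins lie in clusters. Of the 28 type I genes measured, 27 are on chromosome 11, while the 23 type II genes are on chromosome 15 together with Krt88, which was given no type here. Krt18 is the exception, a type I gene on chromosome 15. In the RefSeq table it lies next to its partner Krt8, with 2 genes in between, neither of them protein-coding.

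Levels are given below on the deposited log2 scale, with ratios taken as Tg minus non-Tg. To pass the filter, a gene had to reach an array's median over all probe sets, 5.43 on the Tg array or 5.45 on the non-Tg array. Values under 4.80, the 25th percentile of both arrays, were raised to it for the ratio. Only genes past the filter were counted as higher or lower, from 2-fold on (a log2 ratio of 1). Probe sets bind with different strength, so levels are not ranked between genes. The closest available measure of error is the SD of a log2 ratio between probe sets of the same gene, 0.302 over 658 genes. It leaves out the variation between animals and between amplifications, and no keratin had another probe set to set beside the one used. Ratios over all 11422 genes past the filter had an SD of 0.331, so a ratio beyond 0.302 does not set a gene apart.

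The arrays carried the markers of the labelled cells. All 9 listed cTEC markers passed the filter, with Psmb11 at 10.5 in Tg and 10.1 in non-Tg, and none was 2-fold apart. The ratios of all 9 lay above 0, with a median of 0.14 and a highest value of 0.48 for the aminopeptidase gene Enpep. All 9 also reached the 75th percentile of the arrays. Over all genes that did so, 55.8% of ratios lay above 0, with a median of 0.04. Aire was at 7.33 in Tg and 6.06 in non-Tg, 2.43-fold higher. Markers of other cells were measured above the filter too, which 57.3% of all genes passed. They were 7 of 7 thymocyte markers, with Rag1 at 10.89 in Tg and 10.96 in non-Tg, 3 of 3 endothelial, 3 of 4 fibroblast, 4 of 6 tuft cell and 2 of 4 macrophage and dendritic cell markers. On bulk RNA of this kind, fewer cells of a type and less RNA per cell cannot be told apart.

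Of the 52 keratins, 19 passed the filter, a smaller share than the 57.3% of all genes. Of the 19, 0 were 2-fold higher and 0 were 2-fold lower in Tg. Over all 11422 genes past the filter the share beyond 2-fold was 1.17%, of which 0.797% were higher and 0.376% lower, so a count of 0 among 19 is near that background. At a looser size of 1.5-fold, 0 keratins were higher and 1 was lower (Krt23), where 4.74% of all genes past the filter were higher and 3.13% lower. The ratio was above 0 for 9 of the 19 and below 0 for 10, and over all genes past the filter 50.6% lay above 0. Of the 7 keratins past the 75th percentile, 6 lay above 0, and of the 12 dimmer ones, 9 lay below 0. Over all genes, 55.8% lay above 0 past the 75th percentile and 45.6% between it and the filter. The median ratio was -0.06 over the 19, against 0.01 over all genes past the filter. Both arrays put 14 of the 19 past the filter. Krt27 passed on the Tg array alone, and Krt23, Krt35, Krt77 and Krt80 passed on the non-Tg array alone. A gene kept through 1 array alone was selected on its higher value, so the ratios of these 5 are given as a description. The members just inside were Krt77, at 5.31 in Tg and 5.47 in non-Tg, and Krt23, and the members just outside were Krt12, at 5.41 on both arrays, and Krt33a.

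**Figure D1:**
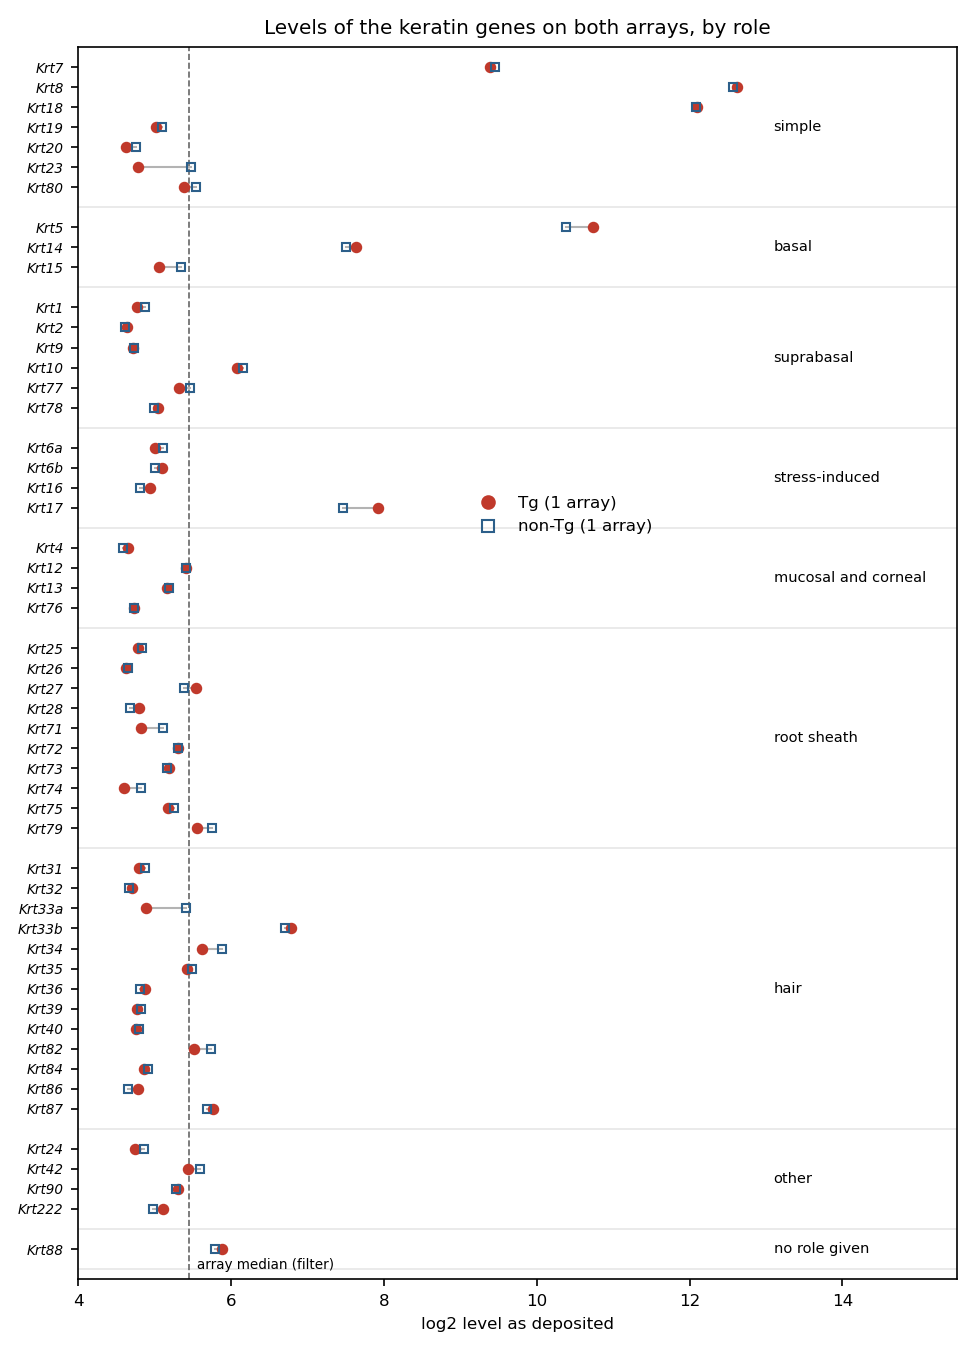
Log2 level as deposited (x axis) of each of the 52 keratin genes (rows, grouped by role), with the Tg array as filled circles and the non-Tg array as open squares. The dashed line is the median of the non-Tg array, 5.45. Krt7, Krt8, Krt18, Krt5, Krt14, Krt17 and Krt33b stand well to its right on both arrays, and most other keratins lie near or left of it.

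The cortical keratin pair was bright on both arrays, and its levels differed little between the genotypes. Krt8, the type II chain of simple epithelia, was at 12.62 in Tg and 12.57 in non-Tg, with a log2 ratio of 0.05. Krt18, its type I partner, was at 12.10 in Tg and 12.08 in non-Tg, a ratio of 0.02. Both ratios are smaller than the SD between probe sets. A pseudogene of Krt8 is annotated in RefSeq as Krt8-ps, and whether the Krt8 probe set also reads it was not tested.

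The other simple keratins were not measured alike. Krt7, a type II keratin of ducts and glands, was at 9.39 in Tg and 9.46 in non-Tg, with a log2 ratio of -0.07. Krt19, which pairs with Krt8 in many simple epithelia, did not pass the filter, at 5.02 in Tg and 5.10 in non-Tg. Krt20, a keratin of intestinal and urothelial surface cells, was under the floor on both arrays, at 4.63 in Tg and 4.75 in non-Tg. Krt7 was thus well above the filter on both arrays while Krt19 and Krt20 were below it on both.

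Krt23 and Krt80, also grouped with the simple keratins, lay at the edge of the filter. Krt23, a type I keratin, was at 4.79 in Tg and 5.48 in non-Tg. The Tg value was under the floor, so Krt23 was at least 1.61-fold lower in Tg, with a log2 ratio of -0.68 against the floor. It was the lowest ratio of the family, it did not reach 2-fold, and it rests on a non-Tg value 0.03 above the filter. Krt80, a type II keratin found in many epithelia, was at 5.39 in Tg and 5.54 in non-Tg, a ratio of -0.15.

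Among the basal keratins, both chains of the medullary pair passed the filter. Krt5, the basal type II chain, was at 10.73 in Tg and 10.39 in non-Tg, with a log2 ratio of 0.34 or 1.27-fold. Krt14, its type I partner, was at 7.64 in Tg and 7.50 in non-Tg, a ratio of 0.14 or 1.10-fold. The Krt5 ratio exceeded the SD between probe sets and the Krt14 ratio did not, and neither reached 2-fold. Over all genes past the filter the SD of the ratio was 0.331, close to the Krt5 ratio. Krt15, a further basal type I keratin, did not pass the filter, at 5.06 in Tg and 5.34 in non-Tg, a ratio of -0.28.

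Krt17 had the highest ratio of the family. This type I keratin, found in hair follicles and basal appendage cells and induced in stressed or wounded epidermis, was at 7.92 in Tg and 7.46 in non-Tg, with a log2 ratio of 0.46 or 1.38-fold. The difference exceeded the SD between probe sets and did not reach 2-fold. Of all 11422 genes past the filter, 10070 had a ratio within 0.5 of 0, and the SD of their ratios was 0.331. The other stress-induced keratins did not pass the filter. Krt16, which is induced with Krt6a and Krt6b in injured epidermis, was at 4.94 in Tg and 4.80 in non-Tg. Krt6a was at 5.00 in Tg and 5.11 in non-Tg, and Krt6b at 5.10 in Tg and 5.01 in non-Tg, with ratios of -0.11 and 0.09. Krt6a and Krt6b are near-identical copies whose probe sets may read each other's transcripts. Krt17 was therefore measured above the filter without the other members of its group.

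Markers of other cells are given beside the Krt5 and Krt17 values. Of the medullary markers other than Aire, 5 of 7 measured passed the filter, 0 were 2-fold apart, and 4 ratios were above 0 and 3 below. Their summed signal, the sum of unlogged values, was 381.9 in Tg and 330.2 in non-Tg. Beyond 1.5-fold were 2 of them, Ctss and Cd86, both higher in Tg, against 4.74% of all genes past the filter. Ctss, a lysosomal protease, was at 6.71 in Tg and 5.94 in non-Tg, a ratio of 0.77. Cd86, a costimulatory gene, was at 5.55 in Tg and 4.83 in non-Tg, a ratio of 0.72. Cd86 passed the filter on the Tg array alone, so it was selected on its higher value. The summed signal includes these 2 genes and does not separate them from the other medullary markers. Tnfrsf11a had the lowest ratio of the list, -0.39, at 5.74 in Tg and 6.14 in non-Tg. Fezf2, a medullary transcription factor, was at 5.54 in Tg and 5.61 in non-Tg. Tuft cell markers had a summed signal of 376.03 in Tg and 287.9 in non-Tg. That sum includes the taste G protein gene Gnat3, at 7.06 in Tg and 5.50 in non-Tg (2.95-fold higher). Gnat3 was the 1 marker beyond 2-fold, where 0.797% of all genes past the filter were that much higher. Of 6 ratios, 4 were above 0, among them Dclk1 and Trpm5, which did not pass the filter. Gfi1b and Avil had ratios of -0.33 and -0.12. Macrophage and dendritic cell markers had a summed signal of 172.5 in Tg and 209.3 in non-Tg, with 1 ratio above 0, 2 below and 1 at 0. Tyrobp, an adaptor of myeloid receptors, was at 6.08 in Tg and 6.66 in non-Tg. Cd68, which did not pass the filter, went the other way, at 5.22 in Tg and 4.89 in non-Tg. The summed signal of the 9 cTEC markers was 18212 in Tg and 16583 in non-Tg. Its brightest members were Ccl25, at 12.64 in Tg and 12.58 in non-Tg, and Ctsl, at 12.57 in Tg and 12.43 in non-Tg. A sum of unlogged values weighs the brightest probe sets most, and some of the sums here include genes that did not pass the filter. The summed signal of the fibroblast markers was 645.2 in Tg and 525.3 in non-Tg, and that of the thymocyte markers was 4207 in Tg and 4633 in non-Tg. The part of these cells in the keratin ratios was not tested.

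**Figure D2:**
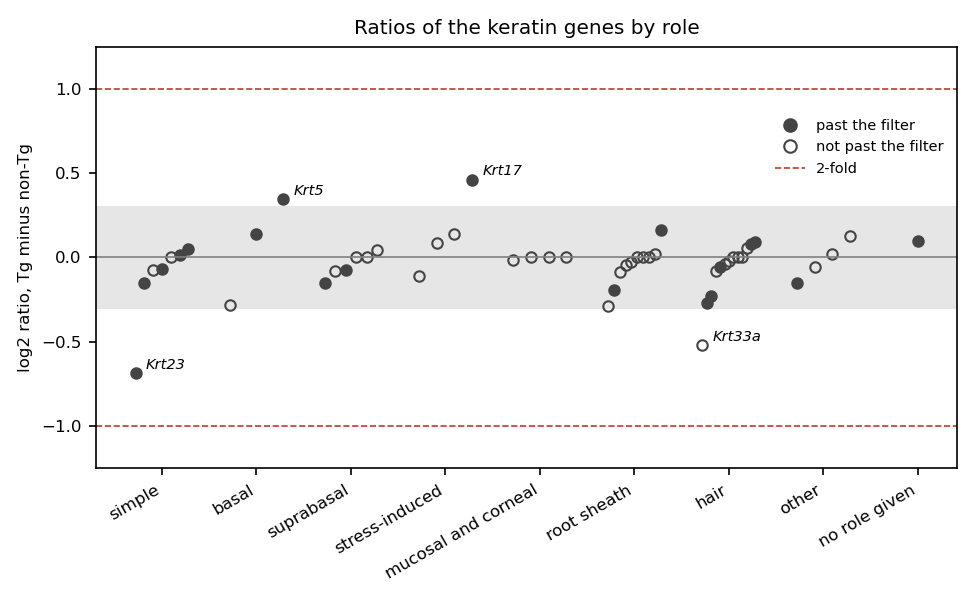
Log2 ratio, Tg minus non-Tg (y axis), of the 52 keratin genes by role (x axis), with filled circles for genes past the filter and open circles for the others. The grey band is 1 SD between probe sets of the same gene (0.302) on either side of 0 and the dashed lines are 2-fold. No keratin reaches a dashed line, and Krt17, Krt5, Krt23 and Krt33a lie outside the band.

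The keratins of differentiating epidermis were mostly dim. Of the 6 suprabasal keratins, Krt10 and Krt77 passed the filter. Krt10, the type I chain of the suprabasal pair, was at 6.08 in Tg and 6.16 in non-Tg, with a log2 ratio of -0.07. Krt1, its type II partner, was at 4.77 in Tg and 4.88 in non-Tg and did not pass. Krt77, a type II chain related to Krt1, had a ratio of -0.15 and passed on the non-Tg array alone. Krt2 and Krt9, keratins of upper epidermal layers and of palms and soles, were under the floor on both arrays, and Krt78 was at 5.04 in Tg and 5.00 in non-Tg. No member of the group was higher in Tg by more than a log2 ratio of 0.04. Cornified keratinocyte markers had 5 of 7 measured ratios above 0, with a median of 0.10. Over all 19938 genes, 7780 ratios were above 0, 8420 below and 3738 at 0, whereas none of the 7 markers was at 0. The list held Ivl (involucrin) at 4.86 in Tg and 4.97 in non-Tg and Lor (loricrin) at 4.82 in Tg and 4.78 in non-Tg. The highest ratio was that of the calmodulin-like gene Calml3, 0.46, at 5.34 in Tg and 4.89 in non-Tg, which did not pass the filter. Sprr1a and Sprr1b, cornified envelope genes, passed it with ratios of 0.16 and 0.14. Sprr1a passed on the Tg array alone, so it was selected on its higher value. Klk7 also passed, with a ratio of -0.04. Of the 7 measured, 3 passed, and none of the 3 reached 2-fold.

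The 4 mucosal and corneal keratins did not pass the filter. Krt4 and Krt13, the pair of oesophagus and other internal stratified epithelia, were at 4.65 and 5.17 in Tg and at 4.58 and 5.18 in non-Tg. Krt12, the corneal keratin, was at 5.41 on both arrays. Krt76, a keratin of the palate, had the same value on both arrays, 4.74. The ratios of this group ran from -0.01 to 0.00.

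Of 10 keratins of the hair root sheath and neighbouring follicle layers, 2 passed the filter. Krt27, an inner root sheath keratin, was at 5.55 in Tg and 5.38 in non-Tg, with a log2 ratio of 0.16. Krt79, a type II keratin of the upper hair follicle and the sebaceous duct, was at 5.56 in Tg and 5.76 in non-Tg, a ratio of -0.20. The other 8 were between 4.59 and 5.30 in Tg and between 4.65 and 5.30 in non-Tg. The lowest ratio among them was that of Krt71, another inner root sheath keratin, at -0.29, with 4.82 in Tg and 5.11 in non-Tg.

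Hair shaft keratins were represented by 13 genes, of which 5 passed the filter. Krt33b, a type I hair keratin, was at 6.79 in Tg and 6.71 in non-Tg, with a log2 ratio of 0.08. It stood clearly above the filter on both arrays, unlike Krt33a, a close copy and its neighbour in the type I cluster. Krt33a was at 4.89 in Tg and 5.41 in non-Tg, a ratio of -0.52, and did not pass. Krt34, another type I hair keratin, was at 5.62 in Tg and 5.89 in non-Tg, a ratio of -0.27. Krt82, a type II hair cuticle keratin, was at 5.52 in Tg and 5.74 in non-Tg, a ratio of -0.23. Krt87 and Krt35 had ratios of 0.09 and -0.06. The 8 hair keratins that did not pass were between 4.70 and 4.89 in Tg and between 4.65 and 5.41 in non-Tg. Krt81, Krt83 and Krt85 were not analysed here. Which of the close copies a probe set reads was not tested, because probe sequences were not used.

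Of the remaining genes, Krt42 and Krt88 passed the filter. Krt42, a type I keratin related to Krt17, was at 5.44 in Tg and 5.59 in non-Tg, with a log2 ratio of -0.15. Krt88 was at 5.89 in Tg and 5.79 in non-Tg, a ratio of 0.10. Krt24, Krt90 and Krt222 did not pass, with ratios between -0.06 and 0.13. By chain type, 10 of 28 type I genes passed, with a median ratio of -0.02 and a range from -0.68 to 0.46. Of the 23 type II genes 8 passed, with a median ratio of -0.11 and a range from -0.23 to 0.34. Among the 33 keratins that did not pass, 10 were under the floor on both arrays.

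**Figure D3:**
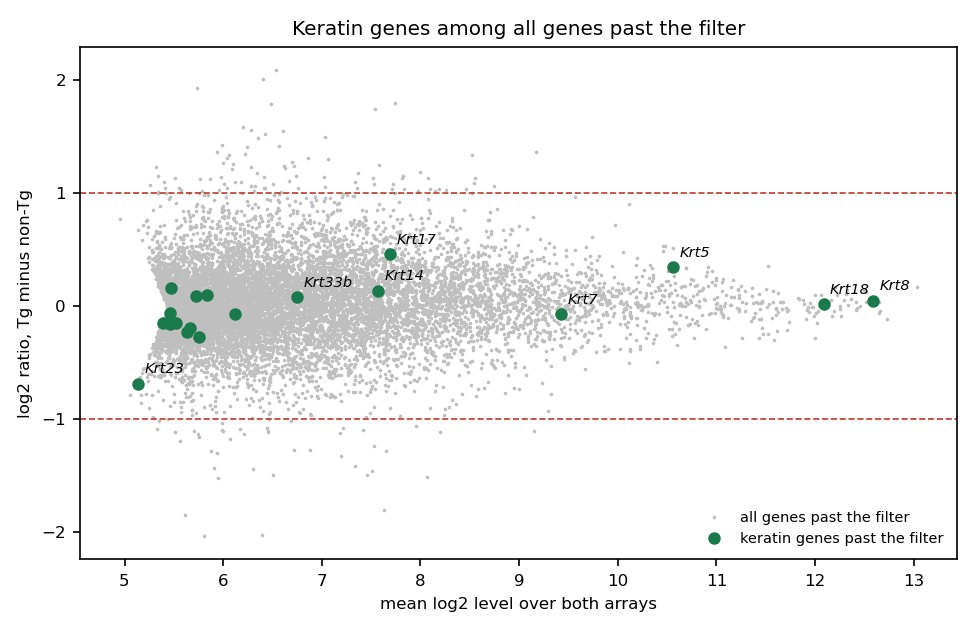
Mean log2 level over both arrays (x axis) against the log2 ratio, Tg minus non-Tg (y axis), for the 11422 genes past the filter (grey) and the 19 keratins among them (green), with dashed lines at 2-fold. The keratins lie within the cloud of all genes, with Krt8 and Krt18 at the bright end close to 0.

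Keratin filaments are tied to junctions and to other filaments by partner proteins. The partner list of 20 genes held such linkers and desmosomal plaque genes. It also held genes of other proteins bound to keratin filaments or only named for them, such as Krtcap2, Krtcap3 and Krtdap. All 20 were measured, 17 passed the filter and 0 were 1.5-fold or more apart, where 7.86% of all genes past the filter were beyond 1.5-fold. Of the 17, 7 had ratios above 0 and 10 below, with a median of -0.02. Dsp (desmoplakin), which anchors keratins to desmosomes, was at 10.86 in Tg and 10.52 in non-Tg, with a log2 ratio of 0.34. Dst (dystonin), which links keratins to hemidesmosomes, was at 9.02 in Tg and 8.69 in non-Tg, a ratio of 0.33. Macf1, a linker of actin and microtubules of the same protein family, was at 8.59 in Tg and 8.27 in non-Tg, a ratio of 0.31. Each of these 3 ratios exceeded the SD between probe sets and none reached 2-fold. They were close to the SD of the ratio over all genes past the filter, 0.331. The partner gene furthest from 0 lay on the other side: Tchp (trichoplein), a keratin-binding protein, was at 5.60 in Tg and 6.07 in non-Tg, a ratio of -0.47.

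Filament genes of other cell types and of the nucleus, together with the nuclear envelope gene Syne1, were listed for comparison. Of 16 measured, 9 passed the filter, 0 were beyond 1.5-fold, and the ratios ran from -0.45 to 0.12. Vim (vimentin), the filament of mesenchymal cells and lymphocytes, was at 8.12 on both arrays. Nefm, the medium neurofilament chain of neurons, was at 9.23 in Tg and 9.68 in non-Tg, with a log2 ratio of -0.45. Lmnb1, a lamin of the nuclear envelope, was at 7.91 in Tg and 8.12 in non-Tg, a ratio of -0.21. Nefm was thus the member of this list with the ratio furthest from 0, and its partner chains Nefl and Nefh were at 5.09 and 5.57 in Tg and at 5.16 and 5.50 in non-Tg.

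**Figure D4:**
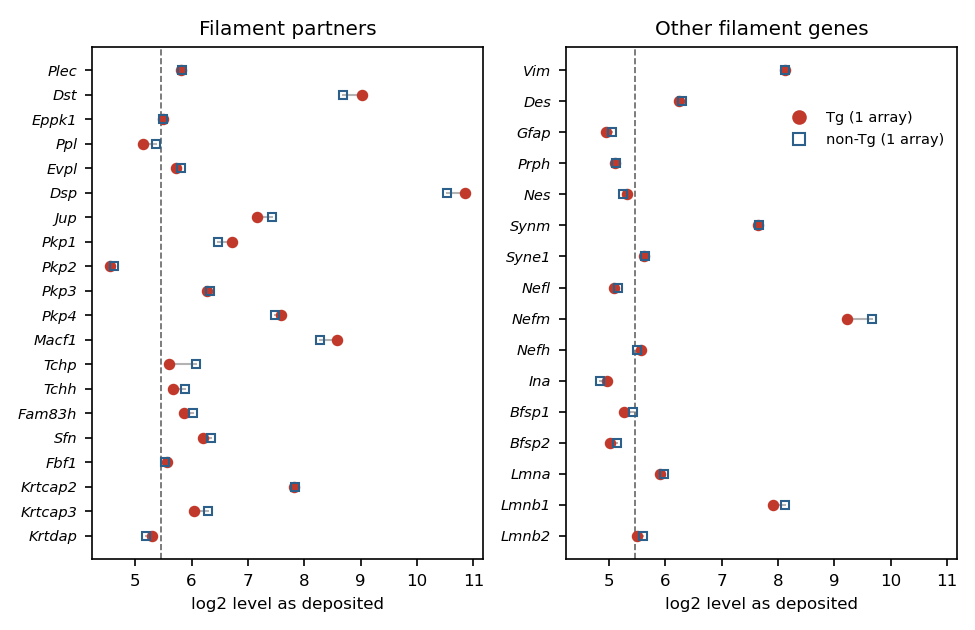
Log2 level as deposited (x axis) of the listed filament partner genes (left) and other filament genes (right), with the Tg array as filled circles and the non-Tg array as open squares. The dashed line is the median of the non-Tg array, 5.45. Dsp, Dst and Macf1 lie slightly to the right in Tg, and Nefm and Tchp slightly to the left.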

How the data were processed

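RNA of cTECs was amplified from 400 pg of total RNA and 5.5 µg of labelled cDNA was hybridised to Affymetrix arrays, per the labels' protocols. The values the authors deposited were read as log2, inferred from their range, with 1 value for each of 28856 probe sets. For background correction, normalization and genome build, the authors' steps are not stated in the labels or the file. Of the probe sets, 21789 had 1 gene symbol, 1621 several and 5446 none here, from the platform annotation in GEO. Names and gene order came from a RefSeq table of GRCm38.p6, in which all 52 keratin genes were found, and promoter windows from RefSeq on the same build. Named genes were all keratins past the filter, those with the most extreme ratios, Aire, Psmb11, and partner genes beyond 1.5-fold or, with none, the 3 with the highest mean level. Other members were named after their values were seen. The members and lists were chosen with earlier results of these data known. No scan dates were used, and precision is limited by 1 array per group. Scripts used Python 3.11.15, numpy 2.4.6, pandas 2.3.3 and matplotlib 3.10.9. The 10 alternatives covered the filter, the floor, the probe set rule, centring, quantile normalization, the fold and probe sets with several symbols.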

Additional observations from a re-analysis of the deposited data

How the results depend on the processing

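The counts of keratins 2-fold higher and 2-fold lower were 0 under each filter, floor, probe set and scaling alternative. Over all 52 keratins the ratios ran from -0.68 to 0.46, so no filter setting could have changed these counts. With 1.5-fold as the rule of size, 0 keratins were higher and 1 was lower, Krt23, against 4.74% and 3.13% of all genes past the filter. Krt23 passed the filter on the non-Tg array alone, so it was selected on its higher value. The number of keratins past the filter depended on the filter: 44 passed at the 25th percentile (82.6% of all genes did), 7 at the 75th (28.2%) and 52 without a filter. The 7 were Krt5, Krt7, Krt8, Krt14, Krt17, Krt18 and Krt33b. The median ratio lay between -0.06 and 0.08 over keratins past the filter and between -0.02 and 0 over all 52. Of 171 recomputed ratios of the 19 keratins, 170 kept their sign and each moved by at most 0.05. The exception was Krt8, whose ratio was 0 after quantile normalization of the arrays. Most of these ratios could not move. A filter setting does not enter the ratio, and centring subtracted a median of 0. Only removing the floor and quantile normalization could change a ratio, so the count of 170 is not a measure of stability. Averaging probe sets and adding probe sets with several symbols changed no keratin value, since each has 1 probe set and no shared probe set names keratins alone. Values near the lower bound limit what can be seen: a change in a keratin that stays below the filter was not detectable. No paired analysis was possible because each genotype has 1 array.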

Other observations

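Krt72 and Krt76 had equal values on both arrays, as did 504 of all 19938 genes (2.53%).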
